A study of Oryza nivara and Oryza rufipogon with 42 samples.

Results

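The genes described here are 6 regulators of seed shattering in rice, followed across leaves and panicles of 2 wild rices, Oryza nivara and Oryza rufipogon. They were chosen by name: qSH1 (LOC_Os01g62920), SH5 (LOC_Os05g38120), SHAT1 (LOC_Os04g55560), SH4 (LOC_Os04g57530), SNB (LOC_Os07g13170) and OsIDS1 (LOC_Os03g60430). By the numbering of the locus IDs, qSH1 lies on chromosome 1, SH5 on chromosome 5, SHAT1 and SH4 on chromosome 4, SNB on chromosome 7 and OsIDS1 on chromosome 3. The count table of digital gene expression (DGE), which reads a short tag cut from near the 3′ end of each transcript, lists 5 of the 6 among 20134 genes. The RNA-seq table lists all 6 among 37497 genes. SH4 was therefore measured here by RNA-seq only. The files pair no locus ID with a symbol, and the symbols are given from general knowledge.

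Heading-stage flag leaves, heading panicles and flowering panicles were compared in O. nivara, an annual, and O. rufipogon, a perennial. Each of the 6 groups held 6 DGE libraries, 3 of plants collected in 2009 and 3 of plants collected in 2010. All plants were wild accessions, raised from seed in pots in a greenhouse, with places of origin in India, Thailand, Nepal and Myanmar. The number in a library title was taken as the plant. The labels do not state this, and the RNA-seq libraries of O. nivara carry the numbers 39 and 40 although the design speaks of 1 individual per species. RNA-seq was done on 6 libraries, 1 for each species and tissue, so RNA-seq differences have no replicate check.

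Wild rices drop their ripe grains at an abscission layer, a thin plate of small cells at the base of each spikelet, and rice was domesticated in part by losing it. qSH1 and SH5 are related BEL1-type homeodomain proteins needed to form or complete that layer, and SH5 is also known to restrain lignin synthesis. SH4, a trihelix DNA-binding protein, and SHAT1, an AP2 protein, act in the differentiation of the layer, while SNB and OsIDS1 are AP2 proteins known first for the fate of the spikelet meristem, with SNB also acting on shattering.

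DGE library totals ran from 1725036 to 2712054 counts in 2009 and from 2677440 to 4173433 in 2010, so year and depth went together. DGE levels are given as CPM (counts per 1e6, after TMM scaling of library totals). They are not divided by gene length, since DGE reads a tag from near the 3′ end of each transcript. Of the marker lists, 4 floral organ genes summed to at most 52.8 CPM in flag leaves and to at least 534 in panicles. The summed level of 3 leaf genes was 76.1 to 2131 CPM in heading panicles, 352 to 5482 in flowering panicles and 2988 to 46532 in flag leaves, so flowering panicles overlapped leaves in it. No marker of these 2 lists was at 0 in all libraries of a group. In whole organs, fewer cells of a type and less RNA per cell cannot be told apart, and the abscission layer is a small share of a panicle.

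By RNA-seq and per gene length, SH5 stood highest or second among the 6 genes in the panicle libraries, and SH4 was lowest in each. In the O. rufipogon heading panicle the RPKM values (reads per length of gene model and per library size) were 37.9 for SH5, 32 for qSH1, 18.9 for SNB, 15.7 for SHAT1, 7.3 for OsIDS1 and 0.295 for SH4. In the O. nivara heading panicle they were 23.5 for SH5, 17.9 for qSH1, 16.3 for SHAT1, 15.7 for SNB, 4.48 for OsIDS1 and 0.271 for SH4. SH5, first in both, was above 91.3% of all listed genes in the O. rufipogon library and above 85.5% in that of O. nivara. SHAT1, SNB and qSH1 lay close together in O. nivara, and with 1 library each their order has no error. The order differed by DGE with the same title numbers. In the O. rufipogon heading panicle SH5 was at 22.5 CPM, below SHAT1 at 38.4 and qSH1 at 48.1. In that of O. nivara SH5 was at 12.2 CPM, below qSH1 at 33.1 and SHAT1 at 46.7. Over all heading panicles the DGE medians were 38.7 CPM for SHAT1, 31.2 for qSH1 and 19.1 for SH5.

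In flowering panicles SHAT1 and SH5 led in O. nivara with 24.7 and 24.4 RPKM, followed by qSH1 with 20.1, SNB with 15.1 and OsIDS1 with 4.99. In O. rufipogon flowering panicles the values were 27.1 for SH5, 19.9 for SHAT1, 15.7 for qSH1, 15.6 for SNB and 3.15 for OsIDS1. SH4 had 0.122 RPKM in the O. nivara flowering panicle and was listed at 0 in that of O. rufipogon and in both flag leaves. Its highest value was above only 35% of all listed genes, and its level at the base of single spikelets cannot be read from whole panicles. In flag leaves SHAT1 was at 3.61 and 3.87 RPKM in O. nivara and O. rufipogon, qSH1 at 3.01 and 3.28, and SNB at 1.48 and 4.12. SH5 and OsIDS1 were both under 1 RPKM in those leaves, SH5 at 0.481 and 0.975 and OsIDS1 at 0.771 and 0.878.

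Of the 5 genes in the DGE table, SH5 had the largest differences between panicles and leaves. In O. nivara it ran from 0 to 2.9 CPM in flag leaves (median 0.713), from 8.25 to 44.1 in heading panicles (median 26.5) and from 8.1 to 42.1 in flowering panicles (median 16.9). In O. rufipogon the ranges were 0 to 1.59 CPM (median 0.946), 13.8 to 25.4 (median 19.1) and 7.63 to 17.6 (median 12.2) in the same order. Each of the panicle libraries was thus above each of the flag leaf libraries, which was true of 1.47% of the DGE genes. The log2 difference of heading panicle minus flag leaf was 4.86 (SE 0.56, adjusted p = 3.2e-08) in O. nivara and 4.72 (SE 0.55, adjusted p = 6.88e-08) in O. rufipogon by edgeR's quasi-likelihood test with Benjamini-Hochberg adjustment over 20018 genes. That of flowering panicle minus flag leaf was 4.82 (SE 0.55, adjusted p = 2.18e-07) and 4.03 (SE 0.55, adjusted p = 1.39e-06). SH5 was at most 2.9 CPM in flag leaves, too low to be tested within them. Each gene in the table has 7 TPM or more in 4 or more libraries, so SH5 was listed through its panicles. A gene this low in leaves is listed only if it is higher in panicles. The non-overlap and these p-values are therefore not independent of how genes entered the table.

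The leaf level of SH5 rests on few tags, 14 counts in the 6 O. nivara libraries and 12 in those of O. rufipogon. In the flag leaves of 2009 it had 1 count in O. nivara, against 75 in the heading panicles of that year, a ratio of 49 after scaling with a 95% exact counting interval from 8.52 to 1959. In O. rufipogon it had 3 counts against 167, a ratio of 31.7 (10.7 to 155). In 2010, with more counts, the ratio was 24.5 (14.2 to 46.4) in O. nivara and 17.2 (8.9 to 37.9) in O. rufipogon. These intervals rest on counts summed over 3 libraries and leave out the spread between plants. They also treat tags as independent molecules, which copies made by PCR are not, so they can be too narrow.

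qSH1, the other BEL1-type gene, was also higher in panicles, by less. In O. nivara it ran from 5.61 to 21.7 CPM in flag leaves (median 6.6), from 23.8 to 56.2 in heading panicles (median 33.8) and from 12.1 to 64.8 in flowering panicles (median 35.9). Its heading panicles and flag leaves did not overlap there, as was the case for 9.23% of the genes, while a single flowering panicle, that of plant 197, fell among the leaves. In O. rufipogon the ranges were 5.72 to 18 (median 8.36), 17 to 48.1 (median 23.5) and 10.2 to 39.3 CPM (median 16.1), and the leaf of plant 230 overlapped both kinds of panicle. Heading panicles exceeded flag leaves by 2.05 on the log2 scale in O. nivara (SE 0.35, adjusted p = 1.64e-05) and by 1.48 in O. rufipogon (SE 0.34, adjusted p = 0.00076), as edgeR fitted them over both years.

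In flowering panicles the log2 difference of qSH1 from flag leaves was 1.97 in O. nivara (SE 0.35, adjusted p = 6.38e-05) and 0.85 in O. rufipogon (SE 0.34, adjusted p = 0.0462, edgeR). The O. rufipogon call was narrow: with the plant as a block the difference was 0.86 (adjusted p = 0.0533), and in the libraries of 2010 alone it was 0.18 (adjusted p = 0.783), against 1.61 (adjusted p = 0.0435) in those of 2009. It was lost in 9 of 12 fits that left out 1 library, namely the flag leaf of plant 43, 47, 49, 95 or 199 or the flowering panicle of plant 47, 95, 199 or 230, with adjusted p from 0.0083 to 0.147 over the 12. In 2010 alone the heading panicle difference of O. rufipogon also missed the threshold, at 0.98 (adjusted p = 0.0975).

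**Figure D1:**
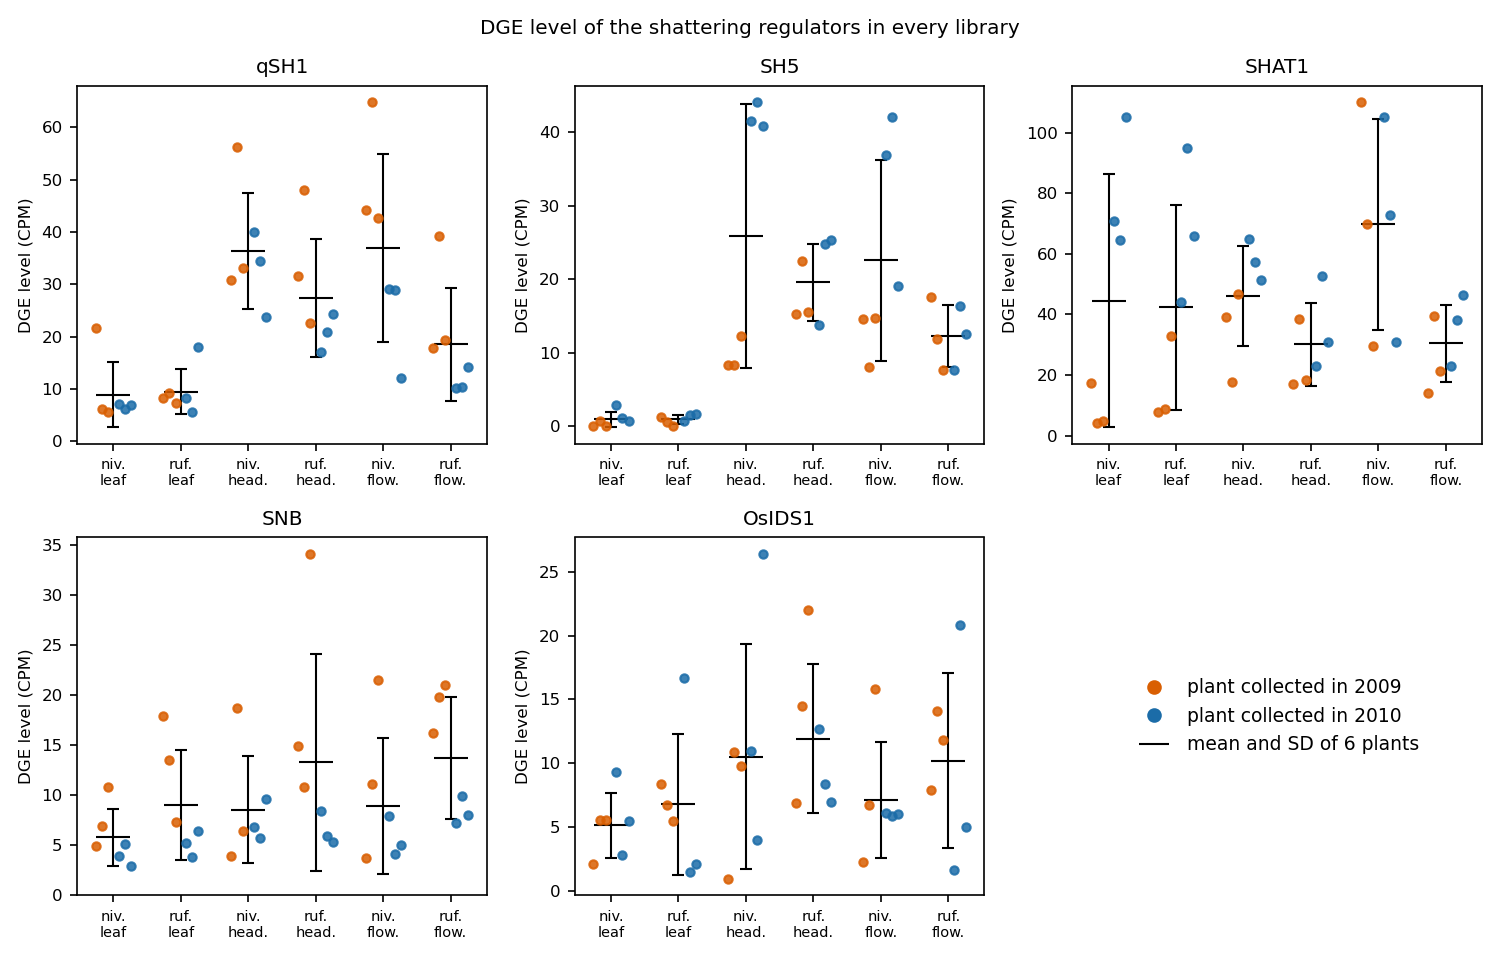
DGE level (CPM, linear axis) of the 5 genes in every library, by species (niv., O. nivara; ruf., O. rufipogon) and tissue (leaf; head., heading panicle; flow., flowering panicle). Points are libraries coloured by collection year, and the black marks are the mean and SD of 6 libraries; SH5 was at most 2.9 CPM in leaves and at least 7.63 in panicles, and the 2010 leaves hold at least 44.2 CPM of SHAT1 against at most 32.8 in 2009.

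Between the flowering and the heading panicle none of the 5 genes was called in either species, where edgeR called 12.9% of genes in O. nivara and 8.21% in O. rufipogon. None had an unadjusted p under 0.05, beside 24.9% of all genes in O. nivara and 20.7% in O. rufipogon. DESeq2 called 0 of them, and 18% and 12.5% of all genes. With the plant as a block edgeR called 0.23% of all genes in O. nivara and 8.95% in O. rufipogon, so the background depended on the model. The largest differences were -0.70 for SH5 (SE 0.42) and -0.63 for qSH1 (SE 0.33), both in O. rufipogon, and 0.65 for SHAT1 (SE 0.42) in O. nivara. Against flag leaves, 2 of the 5 genes (SH5 and qSH1) were called higher in the heading panicles of each species, where edgeR called 46.8% of genes in either direction in O. nivara and 42.6% in O. rufipogon. Of all genes tested, 26.4% were called higher in O. nivara and 23.9% in O. rufipogon, so that a count of 2 of 5 is near the background. In flowering panicles 3 were called higher in O. nivara, SHAT1 being the third, and 2 in O. rufipogon, beside 22% and 22.7% of all genes called higher and 37.7% and 40.6% called in either direction.

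The leaf level of SHAT1 differed between years. In the flag leaves of 2009 it was at 17.5, 4.16 and 4.67 CPM in plants 26, 33 and 40 of O. nivara and at 7.77, 8.8 and 32.8 in O. rufipogon plants 43, 47 and 49. In those of 2010 it was at 70.9, 64.5 and 105 CPM in plants 52, 80 and 133 of O. nivara and at 44.2, 94.9 and 65.7 in O. rufipogon plants 95, 199 and 230. Every leaf of 2010 was above every leaf of 2009, as for 6.4% of the genes. The year difference was 2.55 on the log2 scale (2010 minus 2009, SE 0.50, adjusted p = 0.00342, edgeR), and it passed the threshold in each of the 12 fits that left out 1 leaf library, with adjusted p from 0.000817 to 0.0106. It was 3.09 (SE 0.65, adjusted p = 0.0272) in O. nivara alone and 1.97 (SE 0.67, adjusted p = 0.104) in O. rufipogon alone, and the difference between the species in the year difference was 1.11 (SE 0.94, adjusted p = 0.879, 0% of genes called).

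The year difference of SHAT1 was smaller in panicles and was not called there. In heading panicles it was at 39.1, 17.6 and 46.7 CPM in O. nivara in 2009 and at 64.8, 57.3 and 51.2 in 2010. In O. rufipogon heading panicles it was at 17, 38.4 and 18.5 CPM in 2009 and at 22.8, 52.8 and 30.9 in 2010. The years overlapped in O. rufipogon and not in O. nivara, a separation that 20.2% of the genes showed there. In flowering panicles the values were 110, 69.9 and 29.4 CPM in 2009 and 105, 72.9 and 30.8 in 2010 in O. nivara, and 14.2, 39.6 and 21.4 CPM in 2009 and 23, 38.3 and 46.5 in 2010 in O. rufipogon. Both sets overlapped. The log2 year difference was 0.53 (SE 0.33, adjusted p = 0.26) in heading and 0.27 (SE 0.41, adjusted p = 0.692) in flowering panicles by edgeR.

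A test of whether the year difference was equal in the 3 tissues, added after the values were seen, gave SHAT1 an adjusted p of 0.0431 (edgeR, 2.91% of genes called), and it was the 1 member called. That call was lost in 23 of 36 fits that left out 1 library. In O. nivara these were the flag leaves of plants 33, 40, 52, 80 and 133, the heading panicles of plants 26, 39, 80 and 133 and the flowering panicles of plants 25, 34, 80 and 197. In O. rufipogon they were the flag leaves of plants 43, 47, 199 and 230, the heading panicles of plants 47, 95 and 230 and the flowering panicles of plants 47, 95 and 199. Over the 36 fits the adjusted p ran from 0.00696 to 0.108.

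The contrast of panicle and leaf for SHAT1 had opposite signs in the 2 years in each species and panicle stage. Heading panicle minus flag leaf was 1.99 on the log2 scale (SE 0.74, adjusted p = 0.0528) in O. nivara in 2009 and -0.51 (SE 0.46, adjusted p = 0.412) in 2010, as edgeR fitted them. In O. rufipogon it was 0.58 (SE 0.71, adjusted p = 0.607) and -0.92 (SE 0.46, adjusted p = 0.139). Over both years the O. nivara flowering panicle was called higher than its flag leaf, at 1.35 (SE 0.43, adjusted p = 0.0139), with 3 (adjusted p = 0.0109) in 2009 and -0.21 (adjusted p = 0.777) in 2010. Without the year term it was 0.64 (adjusted p = 0.442). Without the leaf of plant 33 it was 1.13 (adjusted p = 0.051), and without the flowering panicle of plant 25 it was 1.08 (adjusted p = 0.0564). The other 3 contrasts of panicle and leaf were 0.71 (SE 0.43) for the O. nivara heading panicle and -0.19 (SE 0.42) and -0.17 (SE 0.43) for the heading and flowering panicles of O. rufipogon, and none was called.

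The summed level of the 4 floral organ genes was 15.9 to 39.3 CPM in the leaves of 2009 and 20.5 to 52.8 in those of 2010, beside at least 534 in panicles. SH5 was between 0.697 and 2.9 CPM in the leaves of 2010. Year also went with library depth, with the plants used and in part with their origin, and these cannot be told apart from it. Plants from Thailand were all of 2009 and those from Nepal and Myanmar all of 2010, while plants from India were of both years. The RNA-seq leaves were both of plants of 2009, in which SHAT1 was low by DGE as well, at 4.67 and 8.8 CPM.

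**Figure D2:**
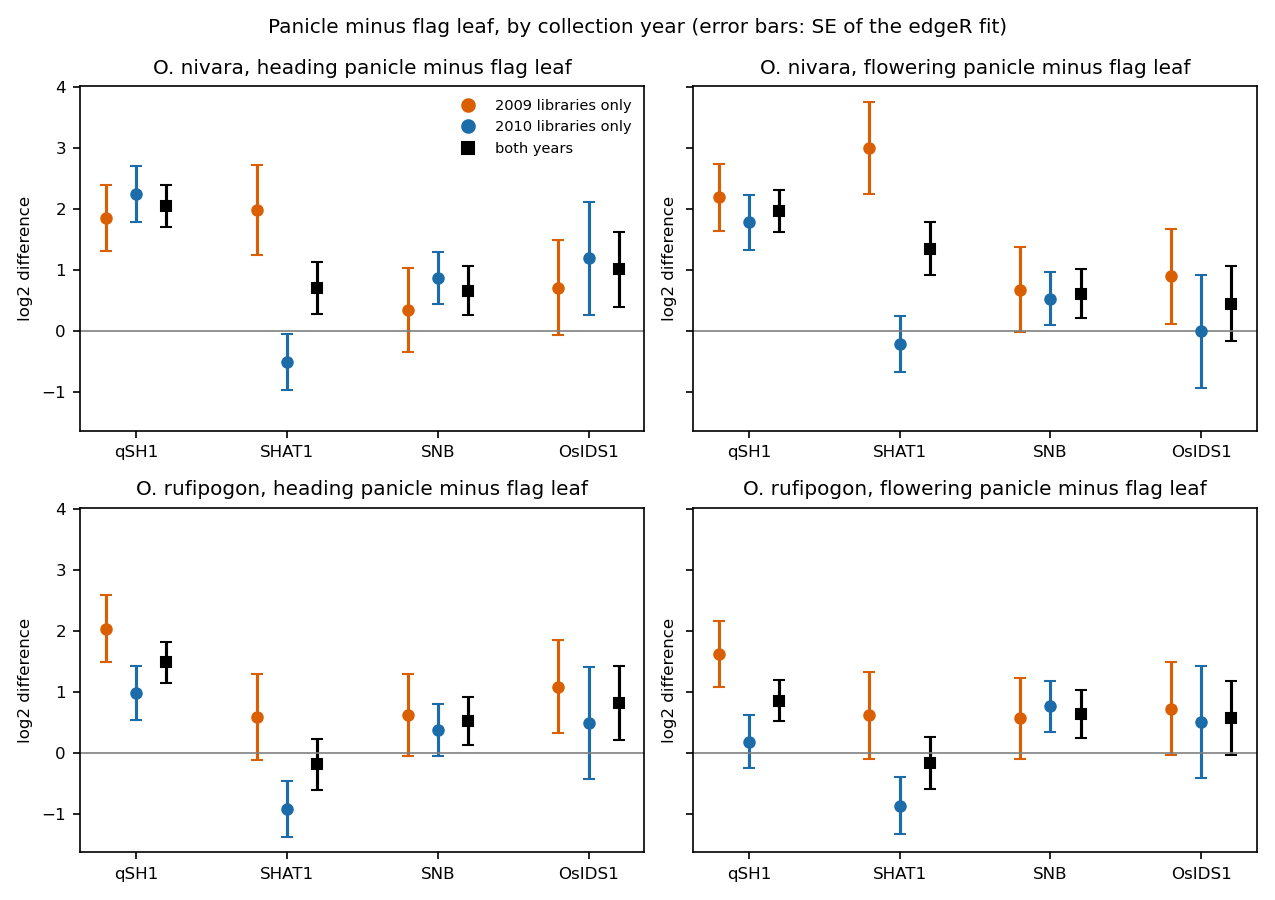
Log2 difference of each panicle stage minus flag leaf for qSH1, SHAT1, SNB and OsIDS1 in each species, for the libraries of 2009, those of 2010 and both (error bars, SE of the edgeR fit). SH5 is left out because its 2009 leaves hold 1 and 3 counts; SHAT1 lies above 0 in 2009 and below 0 in 2010 in each panel, while qSH1 lies above 0 throughout.

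SNB and OsIDS1, the AP2 genes of the spikelet meristem, were low by DGE and were not called between tissues. SNB ran from 2.93 to 10.8 CPM in O. nivara flag leaves (median 5), from 3.91 to 18.7 in its heading panicles (median 6.59) and from 3.65 to 21.5 in its flowering panicles (median 6.48). In O. rufipogon the ranges were 3.81 to 17.9 (median 6.83), 5.3 to 34.1 (median 9.61) and 7.21 to 21 CPM (median 13). All groups overlapped, and the 4 contrasts of panicle minus leaf were 0.52 to 0.66 on the log2 scale with SE of 0.39 or 0.40. None was called. OsIDS1 ran from 1.52 to 16.7 CPM over all flag leaves (median 5.52), from 0.977 to 26.4 over all heading panicles (median 10.3) and from 1.63 to 20.8 over all flowering panicles (median 6.45). Its 4 contrasts were 0.45 to 1.01 on the log2 scale with SE of 0.61 or 0.62, and none was called.

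By RNA-seq, SNB was higher in panicles. Its RPKM was 15.7 in the O. nivara heading panicle and 1.48 in the flag leaf, a log2 ratio of 2.75 after adding 1 to each value, where the DGE ratio of the libraries with the same title numbers was -0.66. In O. rufipogon the heading panicle had 18.9 RPKM and the flag leaf 4.12, a ratio of 1.96 against -0.29 by DGE. The DGE levels behind these ratios were 6.42 CPM (19 counts) against 10.8 (23 counts) in O. nivara and 10.8 CPM (38 counts) against 13.5 (26 counts) in O. rufipogon. In flowering panicles the RNA-seq ratios to leaf were 2.70 and 1.7, and the DGE ratios 0.94 and 0.53.

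A gap in that direction was common among genes. Over the genes in both tables that reached 1 RPKM in either library, the RNA-seq ratio of heading panicle to leaf exceeded the DGE ratio by a median of 0.67 in 17622 genes in O. nivara and 0.63 in 17803 genes in O. rufipogon. Over these genes the median ratio was 0.85 by RNA-seq and 0.13 by DGE in O. nivara, and 0.84 and 0.21 in O. rufipogon. The RPKM were used as deposited, while the CPM were TMM scaled. The gap of SNB was larger than the median gap in both species. For OsIDS1 the heading panicle ratios were 1.63 and 2.14 by RNA-seq and 0.71 and 1 by DGE. For qSH1 they were 2.24 and 2.95 against 2.37 and 2.25, for SH5 4.05 and 4.30 against 3.72 and 3.95, and for SHAT1 1.91 and 1.78 against 3.07 and 2.01. In these libraries, all of 2009, the 3 genes were higher in panicles by both assays, while over all DGE libraries heading panicle minus leaf was not called for SHAT1 and its sign was opposite in 2010. How tags or reads shared between related genes were counted is not given in the sources used here.

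**Figure D3:**
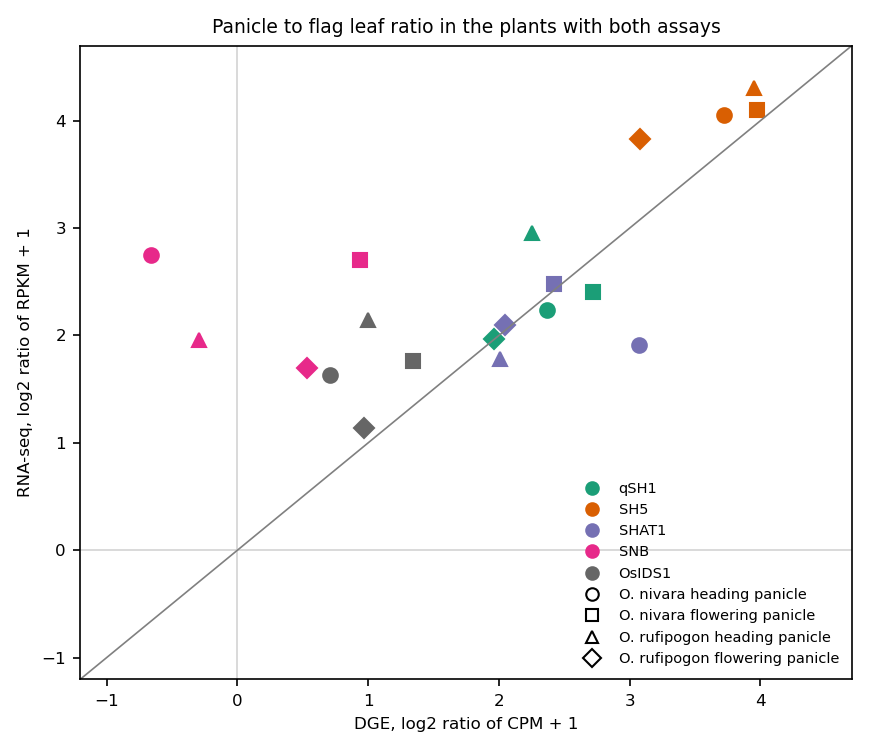
Log2 ratio of panicle to flag leaf by RNA-seq (RPKM + 1, vertical) against DGE (CPM + 1, horizontal) for the 5 genes in DGE and RNA-seq libraries with the same title numbers; each point rests on 1 panicle and 1 leaf library per assay, and the O. nivara heading panicle (39) and leaf (40) carry different numbers; the grey diagonal marks equal ratios. SNB lies farthest above the line, at 2.75 against -0.66 in the O. nivara heading panicle, and SH5 lies near the upper end by both assays.

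Besides SHAT1, 3 genes were called between years in 1 tissue each, in a setting where edgeR called 25.5% of genes in flag leaves, 25% in panicles at heading and 17.7% in those at flowering. SNB was lower in 2010 in flag leaves, by -1.23 on the log2 scale (SE 0.39, adjusted p = 0.0337), qSH1 was lower in 2010 in flowering panicles, by -1.13 (SE 0.30, adjusted p = 0.0235), and SH5 was higher in 2010 in heading panicles, by 1.09 (SE 0.37, adjusted p = 0.048). In all, 2 of 4 genes tested were called in flag leaves and 1 of 5 in each kind of panicle, near the share of all genes in panicles. SH5 was too low to be tested within flag leaves.

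For SNB the year difference was alike in size in all 3 tissues, at -1.10 in heading panicles (SE 0.45, adjusted p = 0.0926) and -1.14 in flowering panicles (SE 0.38, adjusted p = 0.0569). In O. rufipogon it was at 17.9, 13.5 and 7.29 CPM in the leaves of 2009 and 5.22, 3.81 and 6.36 in those of 2010. Its heading panicles held 14.9, 10.8 and 34.1 CPM in 2009 and 8.4, 5.91 and 5.3 in 2010, and its flowering panicles 16.2, 19.8 and 21 against 7.21, 9.86 and 7.96. Every O. rufipogon library of 2009 was thus above every one of 2010 from the same tissue, as for 2.97% of the genes. Plants 43, 47, 95, 199 and 230 of this species occur in all 3 tissues, so the tissues are not independent. In O. nivara the years overlapped in each tissue.

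The call of SNB in leaves was lost without O. nivara plant 40, 52 or 133 or O. rufipogon plant 43, 47, 95, 199 or 230, with adjusted p from 0.025 to 0.0861 over 12 fits, and with no filter on low counts (adjusted p = 0.051). Without O. nivara plant 26 SNB passed in heading panicles (adjusted p = 0.0389), and without O. nivara plant 25 it passed in flowering panicles (adjusted p = 0.0139), where DESeq2 also called it (adjusted p = 0.0173, 25.7% of genes called).

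In flowering panicles qSH1 was at 44.2, 64.8 and 42.6 CPM in O. nivara in 2009 and at 29.2, 29 and 12.1 in 2010. Its O. rufipogon values were 17.9, 39.3 and 19.4 CPM in 2009 and 10.2, 10.5 and 14.2 in 2010. The years did not overlap within either species, as for 12.5% of all genes in O. nivara, with 17% in the other species. The year call of qSH1 was lost without O. nivara plant 34 (adjusted p = 0.06), O. rufipogon plant 47 (adjusted p = 0.0677) or O. rufipogon plant 199 (adjusted p = 0.0539), and without the species term (adjusted p = 0.0735).

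In heading panicles of O. nivara, SH5 was at 8.3, 8.25 and 12.2 CPM in plants 26, 33 and 39 of 2009 and at 41.5, 44.1 and 40.9 in plants 52, 80 and 133 of 2010. In O. rufipogon SH5 was at 15.3, 22.5 and 15.6 CPM in 2009 and at 13.8, 24.8 and 25.4 in 2010. The years did not overlap in the first species, where 20.2% of all genes were separated in the same direction, and overlapped in the second. O. nivara alone gave 2.02 on the log2 scale (SE 0.38, adjusted p = 0.0176) and O. rufipogon alone 0.20 (SE 0.43, adjusted p = 0.828), fitted with edgeR. The test of the difference between them gave 1.78 (SE 0.52, unadjusted p = 0.00522, adjusted p = 0.363), and edgeR called 0.00522% of genes in that test. The summed level of the leaf genes in heading panicles was 76.1 to 197 CPM in 2009 and 405 to 1235 in 2010 in O. nivara, and 190 to 541 and 1633 to 2131 in O. rufipogon. The years did not overlap in it within either species, and its part in the year differences was not tested.

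Over both species the year call of SH5 was lost in 10 of 12 fits that left out 1 plant, namely 26, 33, 39, 52, 80 or 133 of O. nivara or 43, 49, 199 or 230 of O. rufipogon, with adjusted p from 0.0222 to 0.112. With no filter on low counts it was at 0.0504. In flowering panicles SH5 was at 14.6, 8.1 and 14.7 CPM in O. nivara in 2009 and at 36.9, 42.1 and 19.1 in 2010. O. rufipogon had 17.6, 11.8 and 7.63 against 7.68, 16.4 and 12.6 CPM. Again the years stood apart in O. nivara, as for 15.5% of the genes there, and overlapped in O. rufipogon, while the difference between the species was not called (1.37, SE 0.66, adjusted p = 0.576, 0% of genes called).

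**Figure D4:**
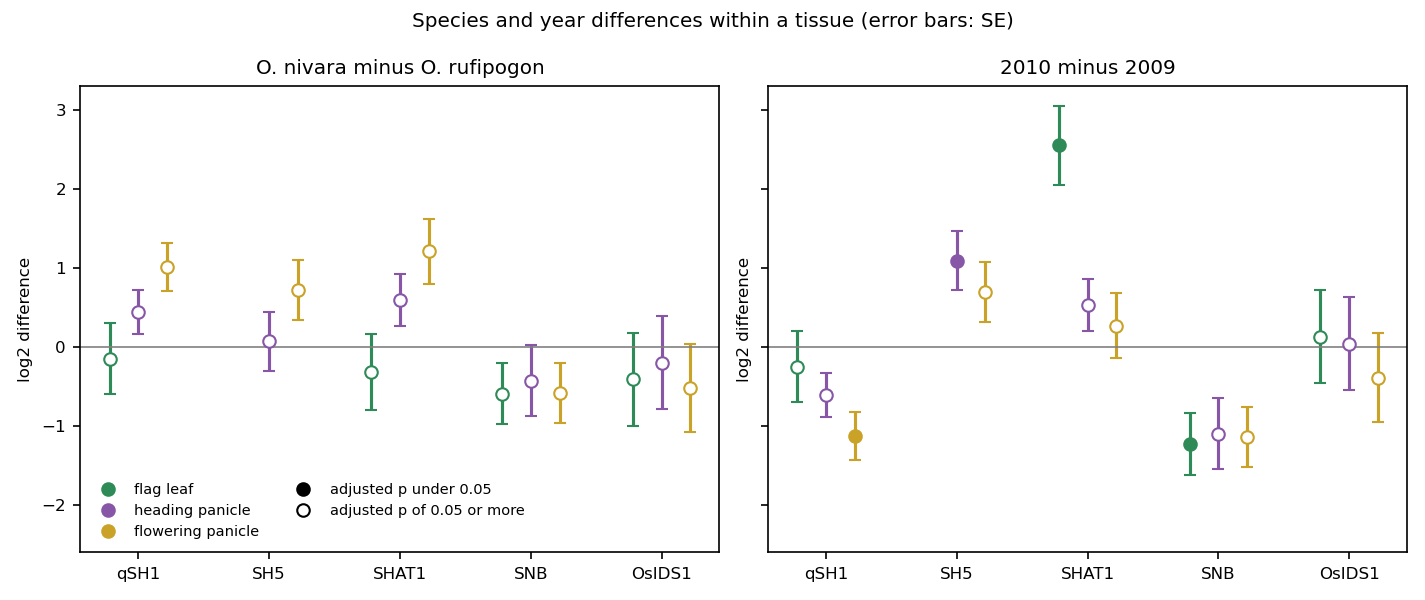
Log2 differences of the 5 genes within each tissue, between species (left, O. nivara minus O. rufipogon) and between years (right, 2010 minus 2009), with SE; filled points passed an adjusted p of 0.05 by edgeR. No point is filled on the left; on the right SHAT1 in flag leaves stands highest at 2.55, and SH5 has no point for flag leaves.

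The species comparison asks whether regulators of shattering are expressed differently in the annual and the perennial wild rice. None of the 5 genes was called by edgeR in any tissue, where it called 0.2% of genes in flag leaves, 0.161% in panicles at heading and 1.26% in those at flowering. With unadjusted p under 0.05 there were 0 of 4 genes in flag leaves, 0 of 5 in heading panicles and 2 of 5 in flowering panicles, beside 12.3%, 11% and 21.1% of all genes. DESeq2 called those 2 genes, qSH1 and SHAT1, in flowering panicles, where it called 10.6% of all genes, and 0 of the 5 in the other tissues (2.62% of genes in flag leaves and 2.75% in heading panicles).

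In flowering panicles qSH1 was at 37 ± 17.9 CPM in O. nivara (SD, n = 6) and 18.6 ± 10.8 in O. rufipogon. The log2 difference was 1.01 (SE 0.30, adjusted p = 0.0963 by edgeR and 0.0236 by DESeq2). SHAT1 was at 69.7 ± 34.8 against 30.5 ± 12.7 CPM, a difference of 1.21 (SE 0.41, adjusted p = 0.126 by edgeR and 0.046 by DESeq2). The species overlapped in both genes. Summed markers of the tapetum, the nurse tissue of pollen, ran from 1.35 to 290 CPM in O. nivara flowering panicles and from 77.1 to 5335 in those of O. rufipogon, with medians of 36.2 and 539. The medians of the summed floral organ genes were 903 and 1364 CPM in the same order, those of 3 pollen genes 47.9 and 152, those of 2 endosperm genes 74.3 and 385, and those of the leaf genes 2980 and 1165. The part of these markers in the species differences was not tested. SH5 differed by 0.72 (SE 0.38, adjusted p = 0.299), SNB by -0.58 (SE 0.38, adjusted p = 0.405) and OsIDS1 by -0.52 (SE 0.56, adjusted p = 0.631). Within years the qSH1 difference was 1.01 (SE 0.46) in 2009 and 0.98 (SE 0.45) in 2010, and that of SHAT1 1.5 (SE 0.60) and 0.94 (SE 0.53), none called. In those fits edgeR called 0.0746% of all genes in 2009 and 0.05% in 2010.

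In heading panicles the species differences were 0.44 for qSH1 (SE 0.28), 0.59 for SHAT1 (SE 0.33), 0.07 for SH5 (SE 0.37), -0.43 for SNB (SE 0.45) and -0.20 for OsIDS1 (SE 0.59). In flag leaves they were -0.15 for qSH1 (SE 0.45), -0.32 for SHAT1 (SE 0.48), -0.59 for SNB (SE 0.38) and -0.41 for OsIDS1 (SE 0.59). The estimates of qSH1, SHAT1 and SH5 were above 0 in both kinds of panicle and those of SNB and OsIDS1 below 0, and none was called. Whether the species difference changed with tissue was tested over all 36 libraries, and 0 of 5 genes were called (0.015% of genes called), with unadjusted p of 0.0565 or more and 0 calls by DESeq2 (0.42% of genes).

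Other genes of the shattering pathway were read from a list of 6. Of these, 4 are in the DGE table: OSH15 and OSH1, KNOX homeobox genes, OsSh1, a YABBY gene of shattering, and OsCPL1, a phosphatase-like repressor of the layer. OSH15, OSH1 and OsSh1 were called higher than in flag leaves in both kinds of panicle in both species, 3 of 4 in each contrast, while OsCPL1 was not called. Of all genes, 26.4% and 22% were called higher in the heading and flowering panicles of O. nivara and 23.9% and 22.7% in those of O. rufipogon. OSH15, which is known to act with SH5, ran from 0 to 8.06 CPM in O. nivara leaves and from 14.5 to 44.3 in its heading panicles (log2 3.94, SE 0.74, adjusted p = 6.12e-05). In O. rufipogon it ran from 0 to 2.43 CPM in leaves and from 7.96 to 90.9 in heading panicles (log2 5.46, SE 0.82, adjusted p = 3.11e-06). Leaves and heading panicles did not overlap in OSH15 in either species, as for 9.23% of genes in O. nivara, with 9.59% in the other species. Like SH5, a gene this low in leaves is listed mainly through its panicles. The non-overlap, these p-values and the place of OSH15 among the 3 of 4 are therefore not independent of how genes entered the table.

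OsSh1 was at 46 ± 16.5 CPM in O. nivara leaves and 201 ± 58.4 in its heading panicles, and at 31.6 ± 10.3 and 104 ± 40.9 in O. rufipogon (SD, n = 6). The list's median log2 difference of heading panicle minus leaf was 2.40 in O. nivara and 2.05 in O. rufipogon, beside 0.18 and 0.16 over all genes tested. None of the 4 genes was called between species in any tissue, where at most 1.26% of all genes were, or between years, where 17.7% to 25.5% were. The lowest adjusted p by edgeR was 0.0986, for OSH15 between years in heading panicles (log2 -1.08), followed by 0.132 for OsSh1 between species in flowering panicles (0.91, SE 0.31).

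Of the AP2 relatives of SHAT1, SNB and OsIDS1, RSR1 (LOC_Os05g03040), known as a regulator of starch synthesis in rice seeds, was called lower in panicles. It was at 345 ± 168 CPM in O. nivara leaves and 34.5 ± 12.6 in heading panicles (log2 -3.32, SE 0.47, adjusted p = 1.01e-06), while in O. rufipogon it was at 362 ± 295 in leaves and 38.4 ± 10.6 in heading panicles (SD, n = 6), with a log2 difference of -3.24 (SE 0.47, adjusted p = 1.7e-06). None of SHAT1, SNB and OsIDS1 was called lower in panicles. Of all genes, 20.4% and 15.7% were called lower in the heading and flowering panicles of O. nivara, and 18.7% and 17.9% in those of O. rufipogon. The other AP2 gene listed, LOC_Os06g43220, was not called in these contrasts.

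Lignin synthesis genes, which SH5 is known to restrain, were read from a list of 7. Of these, 5 were called higher in the heading panicles of 2010 (Os4CL3, OsCAD2, OsPAL, OsCCoAOMT and OsCOMT), beside 12.6% of all genes, and 0 were called lower. OsCCoAOMT, a methyltransferase of lignin precursors, differed by 3.24 (SE 0.43, adjusted p = 0.000469) and Os4CL3, a ligase of the same path, by 2.93 (SE 0.50, adjusted p = 0.00165, edgeR). In flowering panicles 3 of 7 were called higher in 2010, beside 9.56% of all genes. In flag leaves 0 of 7 were called in either direction by edgeR, beside 25.5%. Against flag leaves, 4 of 7 were called higher and 0 lower in the heading panicles of each species. Of all genes, 26.4% were called higher there in O. nivara and 23.9% in O. rufipogon. In flowering panicles 3 were called higher than in leaves in O. nivara and 1 in O. rufipogon, beside 22% and 22.7%. A link of these genes to SH5 was not tested. OsCOMT was also called between species in flowering panicles, with 853 ± 830 CPM for O. nivara against 48 ± 51.8 for O. rufipogon (SD, n = 6; log2 4.34, SE 0.48, adjusted p = 0.00279, where 1.26% of genes were called). Within 2009 it ran from 96.7 to 235 CPM against 2.98 to 11.4, and within 2010 from 1098 to 2079 against 45.6 to 121. Over both years together the species overlapped.

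The genes whose levels were most like each member were taken by Pearson's r of log2 CPM over the 36 libraries, as a description, since libraries of a tissue and year share a collection year and a range of depth. For SH5 the first was LOC_Os07g06620 (r = 0.946), which had mean levels of 8.42 CPM in leaves, 742 in heading and 670 in flowering panicles. For qSH1 it was LOC_Os02g46210 (r = 0.858), at 4.02, 34.4 and 13.1 CPM in the same order. Both are low in leaves, like the members they follow. For SHAT1 it was LOC_Os01g68950 (r = 0.878), at 244 CPM in leaves, 190 in heading and 188 in flowering panicles. For SNB it was LOC_Os03g62720 (r = 0.909), at 6.27, 9.73 and 9.1 CPM. For OsIDS1 it was LOC_Os01g55030 (r = 0.712), at 6.69, 18.7 and 16.5 CPM. Among the members, qSH1 and SH5 had r = 0.684, SNB and OsIDS1 r = 0.577 and SHAT1 and SNB r = -0.532. By that measure SNB ranked 29 of 20133 genes for OsIDS1 and OsIDS1 ranked 765 for SNB, while SH5 ranked 461 for qSH1 and qSH1 ranked 1811 for SH5.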

How the data were processed

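DGE tags, cut with NlaIII and MmeI per the labels' protocols, were measured in 36 libraries and RNA-seq in 6. The authors deposited tag counts per gene, TPM and, for RNA-seq, RPKM. BWA and edgeR 3.6.8 are named in the submitters' processing notes, and no build or annotation is given in the sources used here. The deposited TPM are the counts per 1e6 of a library total with no division by length, and each gene in the table has 7 TPM or more in 4 or more libraries. The RNA-seq depth is unknown.

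Counts were tested with edgeR 4.0.16 in R 4.3.3 (TMM, low-count filter, quasi-likelihood F test, Benjamini-Hochberg over all genes tested, threshold 0.05). Species and year were fitted together within a tissue, and tissues over all 36 libraries with a year term per tissue. Alternatives used DESeq2 1.42.0, other scaling, filters and terms, single years or species, and libraries left out in turn. The scripts were checked on simulated counts. RPKM were compared on the log2(value + 1) scale, which understates changes of low genes. P-values measure the spread between these libraries. The tissue tests treat libraries with the same plant number as independent, and no p-value measures the spread between collection years. Members and gene lists were chosen with earlier results of these data known, and the genes of the figures and text are those members, the lists and the 3 genes most like each member, of which the first is given.

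Libraries with the same title number and year but of other tissues deviated together: the correlation of their deviations from group means over genes ran from -0.0338 to 0.485 in 26 pairs (median 0.265, 23 over 0.1), against a median of -0.111 in 82 other pairs. The number was taken as the plant, so a fit with the plant as replicate block is given where it changes a call.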

Additional observations from a re-analysis of the deposited data

Results flagged for a closer look

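Among 30 groups of 6 libraries, 5 held a library far from the rest by Dixon's criterion, which chance meets in about 1 in 20 groups. In O. nivara flag leaves qSH1 was at 21.7 CPM in plant 26, where the next was 7.09. In O. rufipogon flag leaves it was at 18 CPM in plant 230, with the next at 9.32, and in O. rufipogon flowering panicles at 39.3 CPM in plant 47, with the next at 19.4. SNB was at 34.1 CPM in the O. rufipogon heading panicle of plant 49, with the next at 14.9. OsIDS1 was at 15.8 CPM in the O. nivara flowering panicle of plant 40, with the next at 6.75.

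The year difference of SHAT1 differed between the 3 tissues by a test chosen after its values were seen (edgeR, adjusted p = 0.0431, with 0.00696 to 0.108 when each of 36 libraries was left out in turn).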

How the results depend on the processing

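Over 410 pairs of a gene's value and an alternative, 366 kept their sign and side of the threshold, 13 fell short of it, 3 passed it anew and 28 changed sign; the cause was not tested. Counts of called members moved as follows. Between years in flag leaves (2 called) there was 1 with no filter on low counts, 1 in O. nivara alone and 0 in O. rufipogon alone. In heading panicles (1 called) there were 0 with no filter and 0 in O. rufipogon alone. In flowering panicles (1 called) there were 2 by DESeq2 (25.7% of all genes called), 0 without the species term, 0 in O. nivara alone and 0 in O. rufipogon alone. Between species in flowering panicles (0 called) DESeq2 called 2, beside 10.6% of all genes. In O. rufipogon, heading panicle against leaf (2 called) gave 1 in 2010 alone, and flowering panicle against leaf (2 called) gave 1 without the year term, 1 with the replicate block and 1 in 2010 alone. In O. nivara, flowering panicle against leaf (3 called) gave 2 without the year term and 2 in 2010 alone. In 2010 alone edgeR called 35% of all genes for the O. rufipogon heading panicle against leaf. For the flowering panicles it called 33.4% in O. rufipogon and 22.7% in O. nivara. With the block it called 41.2% in O. rufipogon flowering panicles. Shares for the fits with no filter, without a term, of 1 species or without 1 library are not given here. Those counts therefore have no background beside them. The block on the plant changed no other call of a member. The single-species fits and the tests of year by species and year by tissue were chosen after seeing the data.

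With 1 library left out in turn, the members called between species were 0 to 0 in each tissue, and between years 1 to 2 in flag leaves, 0 to 1 in heading and 0 to 2 in flowering panicles. Between tissues they were 2 to 2 for heading panicle minus leaf in both species, 0 to 0 for flowering minus heading panicle in both, and 2 to 3 in O. nivara and 1 to 2 in O. rufipogon for flowering panicle minus leaf. For species by tissue they were 0 to 0 and for year by tissue 0 to 1.

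The log2 values that changed sign were not called as reported, except SHAT1 in O. nivara flowering panicle minus leaf, at -0.21 in 2010 alone. Between species in leaves they were qSH1 at 0.41 in 2009 alone and SHAT1 at 0.05 without the year term and 0.23 in 2010 alone. In heading panicles they were OsIDS1 at 0.51 and SNB at 0.12 in 2010 alone and SH5 at -0.86 in 2009 alone. Between years they were qSH1 at 0.27 and OsIDS1 at -0.07 in O. rufipogon leaves alone, OsIDS1 in heading panicles at -0.03 without the species term and -0.69 in O. rufipogon alone, and in flowering panicles SHAT1 at -0.01 in O. nivara alone and SH5 at -0.03 in O. rufipogon alone. Panicle minus leaf in single years gave SHAT1 -0.51 in O. nivara heading panicles in 2010, 0.58 in O. rufipogon heading panicles in 2009 and 0.61 in its flowering panicles in 2009 (0.08 with the replicate block), and OsIDS1 -0.0036 in O. nivara flowering panicles in 2010. Flowering minus heading panicle in O. nivara gave qSH1 0.02 without the year term, 0.22 with the block and 0.34 in 2009 alone, SH5 0.16 with the block and 0.38 in 2009 alone, SNB 0.06 without the year term and 0.32 in 2009 alone, and OsIDS1 0.19 in 2009 alone. In O. rufipogon it gave OsIDS1 0.01 in 2010 alone and SNB -0.07 in 2009 alone.

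Depth limits SH5 in leaves, SNB and OsIDS1 most, since some of their libraries hold few counts (2 for OsIDS1 in the lowest heading panicle).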
